A study of Fasciola hepatica with 9 samples.

Results

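Eggs of the liver fluke *Fasciola hepatica* were compared at the middle of an incubation with the start and the end of it. The 3 libraries of eggs incubated for 5 days (T5) were set against the mean of the 3 libraries of eggs frozen on the day of collection (T0) and the 3 libraries of eggs incubated for 10 days (T10), which makes up all 9 libraries of the series. The question was which transcripts were highest or lowest at T5, and not only on the way between T0 and T10. All eggs were untreated and came from adult worms taken from the bile ducts of naturally infected cattle. The worms laid them overnight, and the eggs of all worms were divided into the 3 groups. T5 and T10 eggs were kept in sterilised water with penicillin and streptomycin at the body temperature of the mammalian host, while T0 eggs were not incubated. The samples of a time point are therefore portions of 1 pool of eggs, and p-values here cover only the spread among such portions, which may be technical. The libraries (QuantSeq) were primed on the poly(A) tail, so that a read stands for 1 transcript end and counts do not grow with transcript length.

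A fluke egg is laid as a fertilised ovum packed among vitelline cells, the yolk cells that also supply the material of the tanned eggshell. In fresh water outside the host the zygote cleaves and the embryo grows at the expense of the yolk until a ciliated larva, the miracidium, hatches. In the warm and oxygen-poor bile of the host the egg is held to stay at an early stage. RNA of the whole egg thus comes from yolk cells and embryo together, and in such bulk samples fewer cells of a type and less RNA per cell cannot be told apart. In a separate hatching test of the study, eggs at host body temperature showed cell division at 5 days. There hatching was delayed, and more eggs died the longer they had been kept at that temperature. The part of this in the results below was not tested.

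The library totals ran from 8018586 to 9543870 expected counts. Each library's levels are given as CPM, which are counts scaled to a common library total with edgeR's TMM factors, and 3 counts, taken here as the floor of a library without counts, equalled 0.232 to 0.491 CPM. On the line that joins the mean of the T0 libraries to the mean of the T10 libraries, with T0 at 0 and T10 at 1, T5 replicates 1 and 2 lay at 0.619 and 0.653 and T5 replicate 3 at 0.816, so that replicate 3 stood apart towards T10. The 8 models of vitelline protein B1, tyrosinase and ferritin, which mark vitelline cells and eggshell, summed to 80428 to 88234 CPM at T0, 48818 to 59607 CPM at T5 and 26171 to 65610 CPM at T10. This sum does not stand for each member. The median T5 - T0 was -1.15 log2 units for the list of 5 ferritins and 0.02 for the list of 3 eggshell proteins. The 23 models of secreted cathepsin L, tetraspanins and saposins, which mark the surface and gut of the adult fluke, summed to 16240 to 19735 CPM, 8257 to 11203 CPM and 5503 to 7666 CPM at the same times, with 5 models at 0 in all libraries. The 10 models of tektins, axonemal dynein and radial spoke protein for ciliated cells summed to at most 46.5 CPM in any library. Of the 4 muscle markers tropomyosin was at 0 in all libraries, and the list summed to 456 to 478 CPM at T0, 355 to 449 CPM at T5 and 304 to 384 CPM at T10. None of the marker models for vitelline cells, cilia or muscle was called in the contrast, and 2 of the surface and gut models were called lower. The part of these cell types in the results below was not tested.

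Of 9708 protein-coding models, 6319 passed the filter on low counts and were tested. The difference of T5 from the mean of T0 and T10, both on the log2 scale, is called the log2 difference here. With edgeR's quasi-likelihood test and Benjamini-Hochberg adjusted p-values over all tested models, 518 transcripts (8.2%) were called, 405 of them higher at T5 (6.41%) and 113 lower (1.79%). A transcript that climbs early and then stays also passes this contrast, so T5 was required to lie outside both other time points. Called or not, 19.9% of the tested transcripts were fitted above both and 18.6% below both. By their fitted levels 276 called transcripts (4.37%) had a peak at T5, above both T0 and T10, and 99 (1.57%) had a dip, below both. Of the 129 transcripts called higher without a peak, 128 were highest at T10. Of the 14 called lower without a dip, all were highest at T0 and lowest at T10.

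Peaks and dips had different shapes. Peaks were mostly a climb between T0 and T5 followed by a small decline. The median peak was 1.35 log2 units above T0 and 0.30 above T10, and the distance from T0 was the larger one in 248 of 276. In 79 peaks the distance of T5 from T10 was under 10% of that from T0. Such distances depend on the scaling, since without TMM factors the median T5 - T10 of all tested transcripts moved by -0.23. Dips were more even, with a median of -0.83 against T0 and -0.53 against T10, and in 59 of 99 the distance from T10 was at least 50% of that from T0. Tested on its own, T5 was higher than T0 in 259 peaks (21.6% of all tested transcripts were) and higher than T10 in 48 (5.78%). Among dips T5 was lower than T0 in 88 (15.1%) and lower than T10 in 43 (4.46%). Both steps passed in 31 peaks (0.491% of all tested) and in 32 dips (0.506%). All 3 T5 libraries lay above all 6 others in 90 peaks and below all 6 others in 55 dips, where over all tested transcripts 2.28% lay above and 2.2% below. Peaks and dips were chosen on these same values, so that larger shares than over all tested transcripts follow from the choice.

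**Figure D1:**
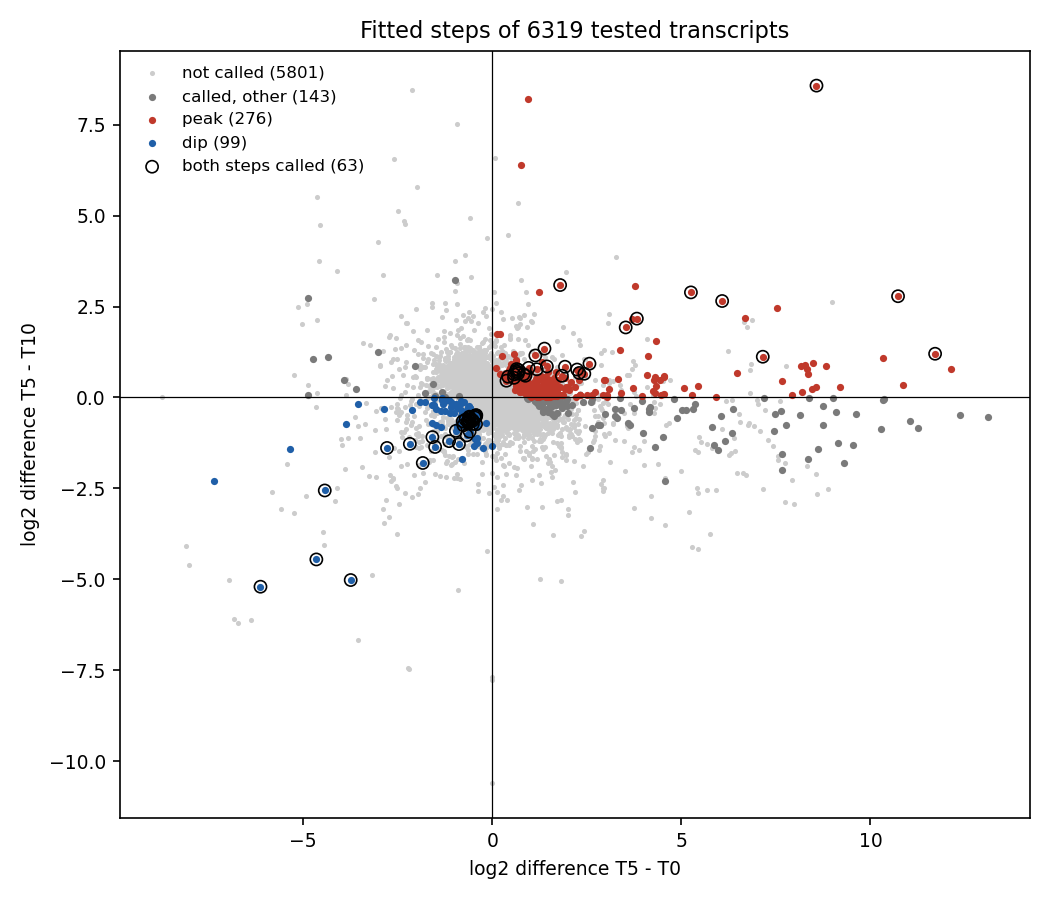
Fitted log2 difference of T5 from T0 (horizontal axis) against that from T10 (vertical axis), 1 point per tested transcript. Peaks (276) lie right of and above the 0 lines and dips (99) left of and below them, and the 63 circled transcripts passed the test in both steps; most peaks lie close to the horizontal axis, with T10 little below T5.

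**Figure D2:**
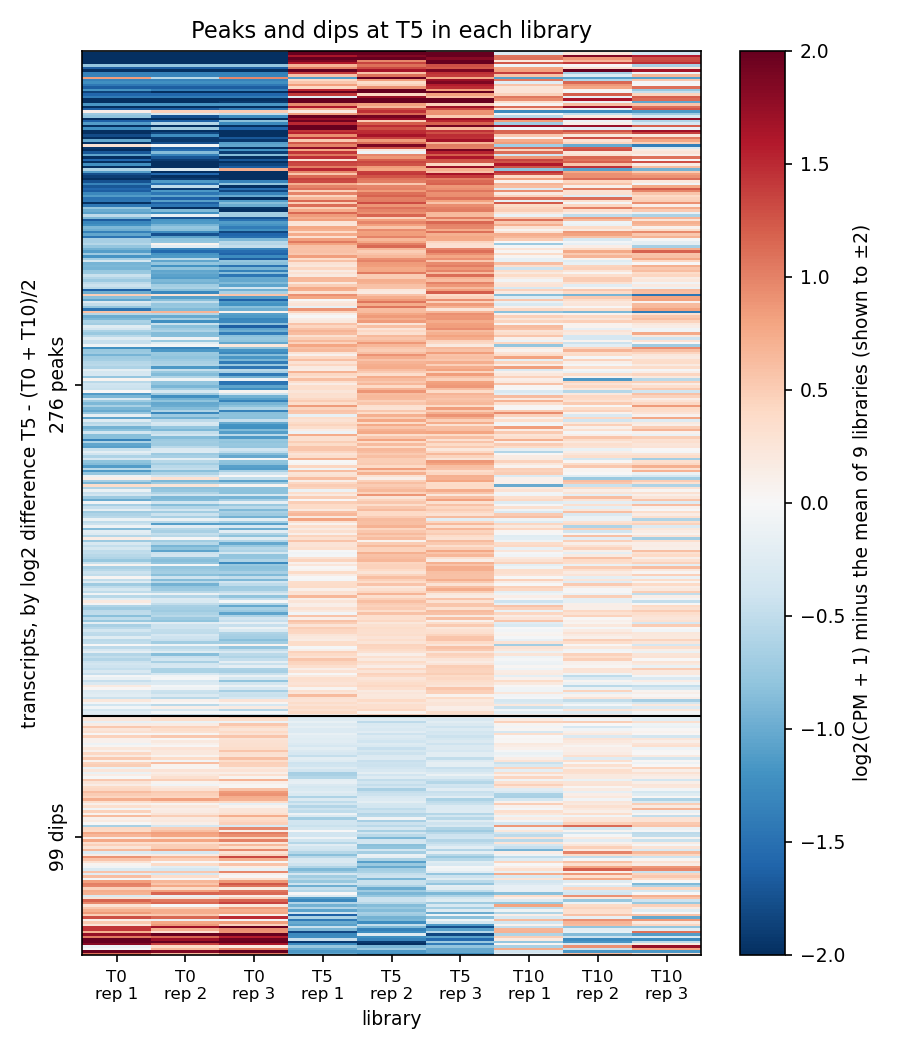
Level of the 276 peaks and 99 dips in each of the 9 libraries, as log2(CPM + 1) minus the transcript's mean over the libraries, drawn up to 2 units either way. The T0 columns are the lowest for most peaks, and the T10 columns lie between T0 and T5 or near T5.

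The number of calls depended on single libraries. Without T5 replicate 3 there were 154 peaks, of which 145 were shared with the 276, and 51 dips, of which 34 were shared with the 99. Without T5 replicate 2 there were 115 peaks and 30 dips, and without T10 replicate 1, which lay farthest from the other T10 libraries in the yolk markers, 359 peaks and 170 dips. Peaks numbered 157 without T0 replicate 2 and 153 without T0 replicate 3, and dips 65 and 50. Dips numbered 55 without T5 replicate 1 and 55 without T10 replicate 2. The transcripts that passed in both steps ranged with a library left out from 8 peaks and 7 dips without T5 replicate 2 to 67 peaks and 73 dips without T10 replicate 1. Of 131 called transcripts with a product name, 63 kept the call without T5 replicate 3.

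Peaks were also longer than dips. The median length of a peak's model was 3392 bases, that of a dip's 2192 bases and that of all tested models 2913 bases. A product name was at hand for 53 of 276 peaks (19.2%), 43 of 99 dips (43.4%) and 30.2% of all tested models. The names come from a list ordered by abundance and cover the abundant transcripts better than the rare ones, so that the genes named below are not an even sample of the peaks. The gene lists below hold only models with a product name. Of the 1906 tested models with one, 79 were called higher and 52 lower, 53 peaked and 43 dipped. Their median log2 difference was -0.04, and 1083 of them had a negative one, beside 2927 of all 6319.

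Among named peaks the largest distance from both other time points belonged to myoglobin 2, a globin of the oxygen-binding family (model on scaffold 908). It had 4.71, 2.76 and 6.06 CPM in the T0 libraries, 236, 173 and 105 CPM in the T5 libraries and 33.7, 23.9 and 12.1 CPM in the T10 libraries. Every T5 library was above every other library, and T10 was still above T0 in all replicates. The log2 difference was 4.07 (SE 0.29, adjusted p = 1.8e-07, quasi-likelihood test in edgeR), with steps of 5.25 against T0 and 2.89 against T10. With any 1 library left out the adjusted p stayed at or below 2.1e-06.

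A pyrimidine 5'-nucleotidase, an enzyme that removes phosphate from nucleotides, followed the same course at a lower level. Its libraries had 1.47, 0.291 and 0.819 CPM at T0, 16.7, 15.2 and 5.2 CPM at T5 and 1.92, 3.82 and 2.48 CPM at T10. T5 replicate 3 was the lowest of the T5 libraries and still above all T0 and T10 libraries. The log2 difference was 2.99 (SE 0.49, adjusted p = 0.0014, same test).

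An enzyme of the SDR family of oxidoreductases, which use NAD or NADP to oxidise or reduce small molecules (model on scaffold 617), had 20.8, 20.4 and 28.5 CPM at T0, 126, 106 and 110 CPM at T5 and 74.7, 77.4 and 62.7 CPM at T10. The groups did not overlap, with T10 between T0 and T5. Its log2 difference was 1.49 (SE 0.14, adjusted p = 3.9e-06, quasi-likelihood test in edgeR), and its step of 0.67 against T10 passed too (adjusted p = 0.023).

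Annexin, a protein that binds membranes in the presence of calcium, was the most abundant of the named peaks with both steps called. It had 352, 322 and 382 CPM at T0, 1153, 957 and 760 CPM at T5 and 562, 539 and 488 CPM at T10. All 9 libraries were in the order T0, T10, T5 with no overlap. The log2 difference was 1.15 (SE 0.14, adjusted p = 6.6e-05, same test). A second annexin model was tested and was not called.

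Cathepsin B, a lysosomal cysteine peptidase, was the only one of 6 tested cysteine cathepsins to peak, where 4.37% of all tested transcripts did. It had 232, 219 and 261 CPM at T0, 574, 506 and 528 CPM at T5 and 273, 353 and 315 CPM at T10. The T5 libraries were close to each other and lay well above the 6 others. The log2 difference was 0.97 (SE 0.12, adjusted p = 1e-04, quasi-likelihood test in edgeR), with steps of 1.17 against T0 and 0.77 against T10.

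The other 5 cathepsins did not peak. Of these only 1 model of secreted cathepsin L 1 (scaffold 1194), a digestive peptidase of the fluke, was called, and lower (1.79% lower over all tested transcripts). It had 185, 133 and 118 CPM at T0, 8.84, 4.33 and 3.18 CPM at T5 and 4.45, 2.06 and 1.47 CPM at T10, a steep early loss with no dip (log2 difference -1.85, SE 0.34, adjusted p = 0.003, same test). Log2 differences of the remaining 4 were -0.90 for secreted cathepsin L2, -0.16 for a cysteine protease, -0.05 for cathepsin L (scaffold 1184) and 0.24 for secreted cathepsin L 1 on scaffold 685, with adjusted p-values of 0.18 to 0.91 in edgeR's quasi-likelihood test. Cathepsin L genes are a family of near-identical copies between which tags of the 3′ end may be shared, so single models of it are uncertain.

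None of the 6 tested peptidase inhibitors peaked or dipped by a call, beside 4.37% peaks and 1.57% dips over all tested transcripts. Serpin, an inhibitor of serine peptidases, was called lower with no dip, since most of its level was gone by T5 and the rest by T10, with 486, 491 and 501 CPM at T0, 17.9, 20.6 and 12.3 CPM at T5 and 3.44, 3.82 and 0.619 CPM at T10. Its adjusted p of 0.032 (edgeR's quasi-likelihood test) did not hold when T0 replicate 3, T5 replicate 1, 2 or 3, or T10 replicate 2 was left out (0.15 at the most). With DESeq2 (0.12) and with limma on the TPM values (0.29 at the most) it was not called either, so that under DESeq2 none of the 6 was. A Kunitz domain inhibitor on scaffold 72 had the largest positive log2 difference of the group, 0.81, with an adjusted p of 0.31 and overlapping libraries. The others were stefin-1, a cystatin that blocks cathepsins, at -0.07, an antistasin at -0.08, a serine proteinase inhibitor at -0.20 and a BPTI/Kunitz protein at 0.11.

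Several peaks returned at T10 to the level of T0 or below it. A PDZ domain protein, a kind of scaffold at membranes, had 66.7, 53.3 and 62.2 CPM at T0, 99.5, 103 and 87.6 CPM at T5 and 58.3, 61.5 and 58.7 CPM at T10. Its T0 and T10 libraries overlapped and all T5 libraries were above them (log2 difference 0.68, SE 0.13, adjusted p = 0.0034, quasi-likelihood test in edgeR). Dyskerin, the pseudouridine synthase of ribosomal RNA maturation and of telomerase, had 196, 224 and 225 CPM at T0, 301, 241 and 294 CPM at T5 and 199, 191 and 217 CPM at T10. Its log2 difference of 0.42 (SE 0.12, adjusted p = 0.043, same test) kept the call only when T10 replicate 1 or T10 replicate 3 was the library left out, and its adjusted p reached 0.16 with another library left out.

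UTP--glucose-1-phosphate uridylyltransferase, which makes the UDP-glucose used for glycogen, had 22.2, 20.1 and 20.0 CPM at T0, 32.8, 33.8 and 29.9 CPM at T5 and 23.6, 9.11 and 14.4 CPM at T10. LMO4, a LIM-only cofactor of transcription factors, had 176, 166 and 183 CPM at T0, 227, 242 and 210 CPM at T5 and 109, 179 and 139 CPM at T10. The zinc transporter zip1 had 264, 227 and 215 CPM at T0, 296, 312 and 278 CPM at T5 and 238, 160 and 169 CPM at T10. In these 3 transcripts every T5 library was above all others, and the step that passed was the one between T5 and T10. Their log2 differences were 0.83, 0.52 and 0.49 with adjusted p-values of 0.038, 0.033 and 0.041 (edgeR's quasi-likelihood test). None of these calls held without T5 replicate 3 (0.085, 0.058 and 0.08), nor without any T0 library or any other T5 library.

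Glutamate dehydrogenase, which links glutamate to the citric acid cycle and was chosen after its values were seen, was the called named peak whose step against T10 exceeded its step against T0 the most. It had 94.2, 81.3 and 99.2 CPM at T0, 127, 99.6 and 88.7 CPM at T5 and 36.3, 34.7 and 23.8 CPM at T10. The T5 and T0 libraries overlapped, and all T10 libraries were lower than both. The log2 difference of 0.97 (SE 0.16, adjusted p = 0.0014, same test) therefore rested on the step of 1.74 between T5 and T10, while the step of 0.20 between T0 and T5 did not pass (adjusted p = 0.43).

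**Figure D3:**
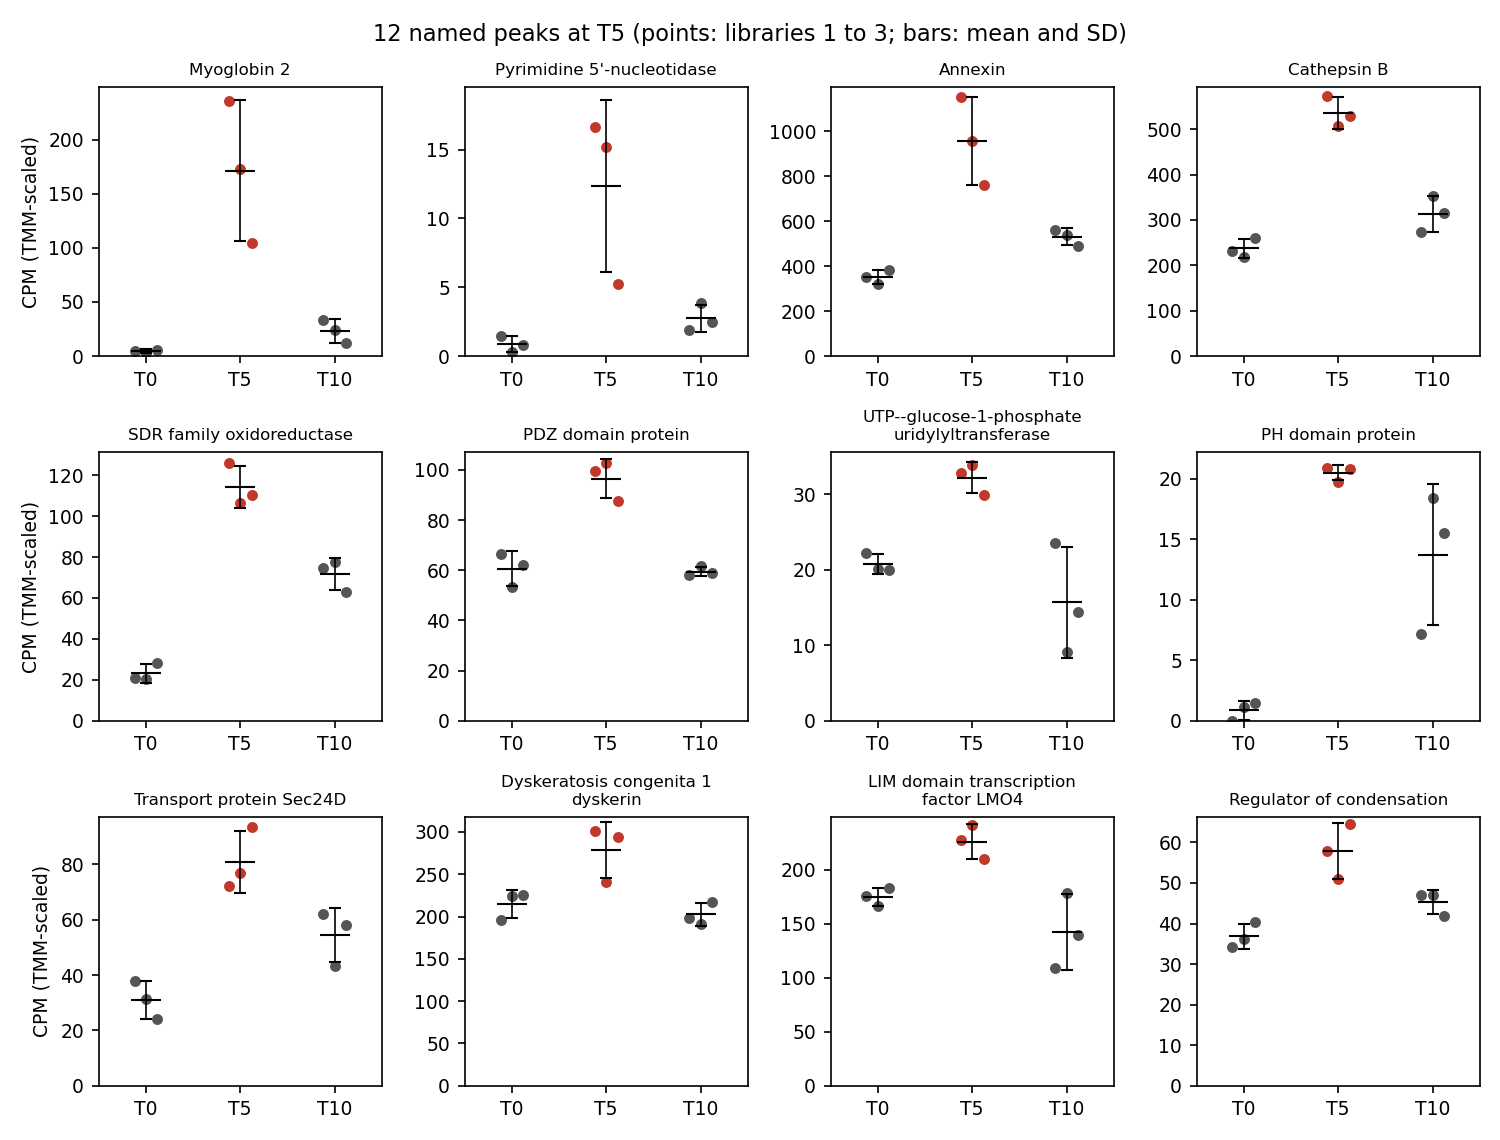
Level in CPM of the 12 named peaks with the largest smaller step, 1 panel each, at T0, T5 and T10. Points are the 3 libraries of a time point and bars their mean and SD. In all panels the 3 T5 points lie above the 6 others, which was a condition of the choice. They run from myoglobin 2 with 105 to 236 CPM at T5 to Regulator of condensation with 50.9 to 64.6 CPM.

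Factors of RNA processing were among the peaks with an early climb. Of 43 tested transcripts of splicing and other pre-mRNA processing, 4 were higher and peaked and 2 were lower and dipped, beside 6.41% higher and 1.79% lower over all tested transcripts. The list's median log2 difference was 0.06, against 0.03 over all. hnRNP H, a regulator of splice site choice, had 224, 200 and 195 CPM at T0, 525, 451 and 568 CPM at T5 and 471, 575 and 440 CPM at T10. Its T5 and T10 libraries overlapped and all were above T0 (log2 difference 0.69, SE 0.13, adjusted p = 0.004, quasi-likelihood test in edgeR).

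The large subunit of the U2 snRNP auxiliary factor, which recognises the 3′ splice site, had 84.5, 70.9 and 71.2 CPM at T0, 148, 136 and 173 CPM at T5 and 144, 127 and 116 CPM at T10 (log2 difference 0.63, SE 0.13, adjusted p = 0.0066, same test). Pcf11, of the complex that cleaves nascent transcripts and ends transcription, had 14.4, 11.6 and 9.17 CPM at T0, 28, 43.5 and 50.5 CPM at T5 and 32.4, 29.8 and 38.7 CPM at T10 (log2 difference 1.03, SE 0.20, adjusted p = 0.0052). T5 replicate 1 of Pcf11 lay below all T10 libraries. FIP1, a polyadenylation factor, was the remaining member of the 4, with a log2 difference of 0.59 (adjusted p = 0.023) that was no longer called without T5 replicate 3 (0.13), T5 replicate 2 or any T0 library.

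Of 18 tested transcripts of DNA replication, 3 were higher, where 6.41% of all tested transcripts were, and none lower. MCM7, a subunit of the replicative helicase, had 372, 319 and 286 CPM at T0, 644, 822 and 1021 CPM at T5 and 637, 906 and 842 CPM at T10. The T5 and T10 libraries overlapped widely, and all were above T0. Its log2 difference was 0.70 (SE 0.16, adjusted p = 0.014, quasi-likelihood test in edgeR), which did not pass without T5 replicate 3 (0.099), T5 replicate 2, T0 replicate 2 or T0 replicate 3. Both models of Replication protein A, which covers single-stranded DNA, were called at 0.46 and 0.49, the first as a peak and the second with its highest level at T10. Without T5 replicate 3 their adjusted p-values were 0.098 and 0.17, and neither was called without T5 replicate 2 or any T0 library, nor the first without T5 replicate 1. The median of the list was 0.04 and its medians against T0 and T10 were 0.44 and -0.22, so that as a list it was nearer to T10.

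Of 25 tested transcripts of actin and muscle, 2 were higher and 1 was lower, beside 6.41% higher and 1.79% lower over all tested transcripts, and the median of the list was -0.03. The gelsolin repeat protein, its 1 peak, of a family that cuts and caps actin filaments, had 1.03, 1.46 and 0.327 CPM at T0, 25.5, 17.4 and 14.4 CPM at T5 and 16.1, 17.1 and 5.42 CPM at T10. All T5 libraries were far above T0, and T5 and T10 overlapped (log2 difference 2.44, SE 0.39, adjusted p = 0.0013, quasi-likelihood test in edgeR). A PH domain protein, of a kind that binds membrane lipids and not in that list, had 0, 1.16 and 1.47 CPM at T0, 20.9, 19.8 and 20.8 CPM at T5 and 7.18, 18.4 and 15.6 CPM at T10 (log2 difference 2.56, SE 0.42, adjusted p = 0.0014). Its T5 libraries were nearly equal and all above T10.

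A homeobox protein, a DNA-binding factor of a family that patterns embryos, had 0, 0.437 and 0.819 CPM at T0, 6.09, 3.8 and 14.5 CPM at T5 and 4.76, 9.11 and 3.71 CPM at T10. It was called (adjusted p = 0.022, quasi-likelihood test in edgeR), but not without T5 replicate 3 (0.21) or T0 replicate 2, and its T5 and T10 libraries overlapped. Together with LMO4 and the transcription factor glial cells missing it made 3 higher of the 21 tested members of a list of homeobox and other DNA-binding factors, which holds LMO4, a cofactor, by its product name (6.41% higher over all tested transcripts). The homeobox protein and LMO4 were peaks (4.37% over all), while glial cells missing had its highest fitted level at T10. Glial cells missing had no count at T0, 0.804, 2.85 and 14.1 CPM at T5 and 6.98, 3.92 and 9.9 CPM at T10, so that T5 was at least 12-fold higher than the floor at T0. Its T5 and T10 libraries overlapped. T5 replicate 3 carried most of the level at T5, and without it, or without any T0 library, there was no call (adjusted p = 0.2 at the most).

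Of 16 tested calcium-binding proteins, 2 peaked and 1 dipped, beside 4.37% peaks and 1.57% dips over all tested transcripts. An EF hand model on scaffold 636 had 0, 0.146 and 0.819 CPM at T0, 8.15, 7.4 and 5.2 CPM at T5 and 5.97, 4.31 and 4.49 CPM at T10 (adjusted p = 0.016, quasi-likelihood test in edgeR, and not called without T5 replicate 1 or 2, where it reached 0.073). The other peak, an EF hand fragment on scaffold 204, had 0.589, 2.62 and 0.164 CPM at T0, 9.19, 9.09 and 8.38 CPM at T5 and 6.88, 4.51 and 7.66 CPM at T10. All its T5 libraries were above the 6 others (log2 difference 1.71, SE 0.50, adjusted p = 0.047), but the call was kept only without T0 replicate 2 or T10 replicate 1 and reached 0.16 with another library left out. With RLE or upper-quartile factors in place of TMM it was not called, and 1 of the 16 was higher. The EF hand model on scaffold 342 was high at the start, with 504, 459 and 581 CPM at T0, 132, 107 and 115 CPM at T5 and 165, 184 and 101 CPM at T10. Its T5 libraries overlapped with T10 replicate 3 (log2 difference -1.24, SE 0.18, adjusted p = 0.00039). EF hand genes also form a family with similar copies, and the split of tags between them is uncertain.

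Sec24D, of the coat that carries cargo out of the endoplasmic reticulum, had 37.7, 31.3 and 24.1 CPM at T0, 72.1, 76.8 and 93.6 CPM at T5 and 62.1, 43.4 and 58.1 CPM at T10 (log2 difference 0.97, SE 0.17, adjusted p = 0.0018, quasi-likelihood test in edgeR). All T5 libraries were above the others. With TVP23, a Golgi membrane protein (0.54, adjusted p = 0.0085, and 0.061 without T5 replicate 2), it made 2 of 65 tested transcripts of vesicle traffic that were called, both higher (6.41% over all tested transcripts). The list was drawn by product name and does not hold sedlin, which was called lower (below). Nor does it hold an Emp24/gp25L/p24 family protein, which was called higher, though not without T0 replicate 3 or T5 replicate 2. Of the 65, 49 had a negative log2 difference, as did 1083 of the 1906 tested transcripts with a product name. Mitochondrial Lon protease, which degrades damaged matrix proteins, had 83.1, 66.4 and 60.2 CPM at T0, 133, 159 and 173 CPM at T5 and 112, 130 and 132 CPM at T10 (log2 difference 0.73, SE 0.14, adjusted p = 0.0033). It was the only one to pass of 28 tested peptidases other than cathepsins, where 8.2% of all tested transcripts passed.

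A mu-class glutathione S-transferase, a detoxification enzyme, had 147, 139 and 163 CPM at T0, 341, 399 and 270 CPM at T5 and 309, 329 and 308 CPM at T10 (log2 difference 0.63, SE 0.13, adjusted p = 0.0072, quasi-likelihood test in edgeR). T5 replicate 3 was below all T10 libraries, and the call was lost without T5 replicate 2 (adjusted p = 0.1). The regulatory subunit 3 of protein phosphatase 4 (0.69, adjusted p = 0.0033) and a serine/threonine kinase on scaffold 737 (0.54, adjusted p = 0.0076) had all T5 libraries above the 6 others. The kinase was not called without T0 replicate 2 or T5 replicate 2 (0.055 at the most).

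The dip with the largest distance from both other time points among named transcripts was a tetraspanin, a protein with 4 membrane spans of the kind found in the fluke's surface layer (scaffold 384). It had 61.4, 46.6 and 69.2 CPM at T0, 9.76, 15.1 and 24.4 CPM at T5 and 60.2, 33.0 and 79.1 CPM at T10. The T0 and T10 libraries overlapped, and every T5 library was below all of them. The log2 difference was -1.82 (SE 0.30, adjusted p = 0.0014, quasi-likelihood test in edgeR), with steps of -1.84 against T0 and -1.80 against T10. It was also called with any 1 library left out (adjusted p = 0.012 at the most). The other tetraspanins tested were not called.

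A protein with the C-terminal domain of glutathione S-transferases had 18, 19.6 and 26.2 CPM at T0, 2.87, 2.96 and 3.37 CPM at T5 and 11.9, 5.88 and 6.42 CPM at T10. The T5 libraries were nearly equal and below all others, and T10 remained below T0. Its log2 difference was -2.09 (SE 0.34, adjusted p = 0.0014, same test). Both glutathione S-transferase calls rest on single models of a family with similar copies.

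The basal transcription factor named HTAFII28-like, a subunit of the complex that binds the promoter, had 26.2, 26.5 and 26.7 CPM at T0, 7.01, 8.14 and 13.0 CPM at T5 and 14.8, 20.1 and 13.2 CPM at T10 (log2 difference -1.13, SE 0.25, adjusted p = 0.013, quasi-likelihood test in edgeR). The T0 libraries were nearly equal, and T5 replicate 3 lay just below T10 replicate 3. Its call was lost without T5 replicate 2 (adjusted p = 0.072). Sedlin, a subunit of the complex that tethers vesicles at the Golgi, had 24.9, 23.4 and 20.5 CPM at T0, 12.5, 8.45 and 15.0 CPM at T5 and 15.9, 24.3 and 24.5 CPM at T10 (log2 difference -0.89, SE 0.24, adjusted p = 0.034). It kept its call only when T5 replicate 3 or T10 replicate 1 was left out, and its adjusted p reached 0.17 with another library left out.

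Several dips belonged to mitochondria. CHCHD1, a small protein of the mitochondrial ribosome in mammals, had 34.3, 34.8 and 40.3 CPM at T0, 12.7, 21 and 22.2 CPM at T5 and 30.4, 33.4 and 42.2 CPM at T10. Its T0 and T10 libraries overlapped and all T5 libraries were lower (log2 difference -0.94, SE 0.20, adjusted p = 0.0099, quasi-likelihood test in edgeR, and 0.0502 with library size in place of TMM). The mitochondrial ribosomal protein L27 had 130, 129 and 159 CPM at T0, 100, 102 and 103 CPM at T5 and 141, 131 and 161 CPM at T10 (log2 difference -0.48, SE 0.13, adjusted p = 0.028), and it was not called without T0 replicate 3, T10 replicate 3 or any T5 library (0.10 at the most). It was the only one called of 15 tested mitochondrial ribosomal proteins, a list drawn by product name that does not hold CHCHD1, of which 13 had a negative log2 difference, 10 had T5 below both other time points and the median was -0.30. Over all tested transcripts 8.2% were called, 18.6% lay below both and the median was 0.03. Of the 1906 with a product name 1083 were negative and 340 lay below both, with a median of -0.04. Cytosolic ribosomal proteins numbered 70 with none called, 17 below both and a median of -0.13.

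The list of the respiratory chain and ATP synthase, drawn by product name, held 46 tested subunits and assembly factors. None of them was higher and 4 were lower, all of them dips, beside 1.79% lower and 1.57% dips over all tested transcripts. NDUFAF7, an assembly factor of NADH-ubiquinone oxidoreductase that the list does not hold, was called higher. It kept the call only when T10 replicate 1 or 2 was the library left out. The list's median log2 difference was -0.16, 38 of 46 values were negative and 21 lay below both other time points, as did 18.6% of all tested transcripts. Of the 1906 tested transcripts with a product name, 52 were lower, 43 were dips, 1083 were negative and 340 lay below both. The 20 kDa subunit of NADH-ubiquinone oxidoreductase, complex I of the chain, had 109, 98.8 and 131 CPM at T0, 86.0, 74.8 and 84.7 CPM at T5 and 125, 131 and 104 CPM at T10. Its T5 libraries were below all others (log2 difference -0.51, SE 0.14, adjusted p = 0.031, quasi-likelihood test in edgeR). The delta subunit of ATP synthase had 76.4, 83.2 and 77.3 CPM at T0, 52.7, 51.3 and 53.1 CPM at T5 and 65.9, 61.3 and 65.4 CPM at T10, with no overlap between the groups (log2 difference -0.44, SE 0.13, adjusted p = 0.041).

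SCO1, which loads copper into cytochrome oxidase, and the alpha 1 subunit of complex I were the remaining 2, both at -0.44 with an adjusted p of 0.043, and both overlapped with T10 libraries. These differences were small, and none of the 4 was called without any 1 of the T5 libraries (edgeR's quasi-likelihood test). The delta subunit and SCO1 kept their call only without T10 replicate 1 (adjusted p = 0.13 and 0.18 at the most), and the alpha 1 subunit only without T10 replicate 1 or 2 (0.20 at the most). The 20 kDa subunit was also lost without T0 replicate 3 or T10 replicate 2 (0.14 at the most). With library size in place of TMM, which moves the median of all transcripts by 0.08, none of the 46 was called and their median was -0.08. Sidoreflexin, a mitochondrial carrier of the inner membrane, had 135, 129 and 152 CPM at T0, 107, 101 and 99.6 CPM at T5 and 130, 154 and 149 CPM at T10 (log2 difference -0.47, SE 0.12, adjusted p = 0.027), and its call was lost without T0 replicate 3, T10 replicate 2 or 3 or any T5 library (0.12 at the most). A mitochondrial pyruvate carrier, which brings pyruvate into the matrix, differed from these in that T0 and T5 overlapped, with 285, 291 and 295 CPM at T0, 286, 221 and 275 CPM at T5 and 437, 449 and 398 CPM at T10 (log2 difference -0.44, adjusted p = 0.043). It was called in 1 of 9 fits with a library left out, the one without T10 replicate 1, and reached 0.20 in the others. Of 18 tested transcripts of the citric acid cycle and pyruvate entry, 1 dipped and 1 peaked. The peak was the succinyltransferase of 2-oxoglutarate dehydrogenase, not called without T0 replicate 2 or 3 or T5 replicate 2 or 3. Mitochondrial GrpE and subunit B of mitochondrial glutamyl-tRNA(Gln) amidotransferase were also called higher, and neither was without any 1 of the T0 libraries.

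Of 24 tested transcripts of glycolysis and glycogen, 2 were called lower (1.79% over all tested transcripts), with a list median of -0.13, and only L-lactate dehydrogenase (scaffold 158), which makes lactate from pyruvate, dipped. It had 56.1, 51.7 and 56.8 CPM at T0, 9.42, 17.9 and 20.5 CPM at T5 and 20.0, 14 and 18.1 CPM at T10, so that T5 and T10 overlapped at a low level (log2 difference -0.95, SE 0.23, adjusted p = 0.018, quasi-likelihood test in edgeR, and 0.0501 without T5 replicate 1). Glycogenin-1, the primer of glycogen, was the other, with 59.3, 57.3 and 71.4 CPM at T0, 26.9, 22.1 and 29.4 CPM at T5 and 29.95, 26.3 and 21.5 CPM at T10. Its adjusted p of 0.033 was 0.061 without T5 replicate 3, and the call was also lost without T0 replicate 3, T5 replicate 1, T5 replicate 2 or T10 replicate 2 (0.15 at the most). The list was drawn by product name and does not hold UTP--glucose-1-phosphate uridylyltransferase (above), which was called higher and peaked.

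SMN splicing factor and U1 snRNP protein C were the 2 dips among the 43 transcripts of RNA processing. SMN splicing factor, of the survival of motor neuron family, had 100, 106 and 113 CPM at T0, 57, 69 and 83 CPM at T5 and 96.5, 103 and 102 CPM at T10. The T0 and T10 libraries overlapped and all T5 libraries were below them (log2 difference -0.57, SE 0.14, adjusted p = 0.019, quasi-likelihood test in edgeR). Its call was lost without T5 replicate 1 or T5 replicate 2 (0.087 at the most) and kept without T5 replicate 3 (0.016). Gem-associated protein 2, a partner of SMN in the same complex, is not in that list and was chosen after its values were seen. It had 48.3, 51.9 and 56.2 CPM at T0, 38.5, 34.2 and 36.9 CPM at T5 and 46, 52.9 and 49.1 CPM at T10. It was among the 3 called transcripts nearest to the threshold (log2 difference -0.47, adjusted p = 0.049) and was called in 1 of 9 fits with a library left out, the one without T10 replicate 1. U1 snRNP protein C, a member of the U1 particle, had 137, 132 and 152 CPM at T0, 81.8, 66.3 and 67.6 CPM at T5 and 88.4, 85.0 and 72.7 CPM at T10, with overlap of T5 and T10 (log2 difference -0.58, adjusted p = 0.014, and 0.082 without T5 replicate 3 or T5 replicate 2 at the most).

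PurA, a protein that binds single-stranded DNA and RNA, had 251, 283 and 308 CPM at T0, 193, 183 and 214 CPM at T5 and 256, 302 and 418 CPM at T10 (log2 difference -0.62, SE 0.15, adjusted p = 0.021, quasi-likelihood test in edgeR). An ABC transporter, of the family of ATP-driven pumps, had 60.6, 53.4 and 47.3 CPM at T0, 36.2, 35.4 and 34.5 CPM at T5 and 54.9, 47.3 and 54.5 CPM at T10 (log2 difference -0.58, SE 0.14, adjusted p = 0.021). In both, T0 and T10 overlapped and T5 was below. PurA was not called without any 1 of the T5 libraries (0.11 at the most), nor the ABC transporter without T5 replicate 2 or 3 (0.096 at the most). A transcript listed only as Protein family protein (scaffold 949) had the same shape at -0.61 (SE 0.14, adjusted p = 0.012), and without T5 replicate 1 its adjusted p was 0.055.

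A cofilin/tropomyosin-type protein, which binds actin, had 320, 344 and 407 CPM at T0, 130, 118 and 136 CPM at T5 and 173, 155 and 152 CPM at T10. The groups did not overlap. The loss came before T5, and all T10 libraries lay above T5 and well below T0 (log2 difference -0.90, SE 0.13, adjusted p = 0.00037, quasi-likelihood test in edgeR). CPEB, a protein that controls the poly(A) tails and translation of stored messages in the eggs of other animals, was chosen after its values were seen. It had 345, 312 and 359 CPM at T0, 115, 143 and 135 CPM at T5 and 152, 164 and 196 CPM at T10, likewise without overlap (log2 difference -0.87, SE 0.13, adjusted p = 0.00071). Both were called with any 1 library left out.

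**Figure D4:**
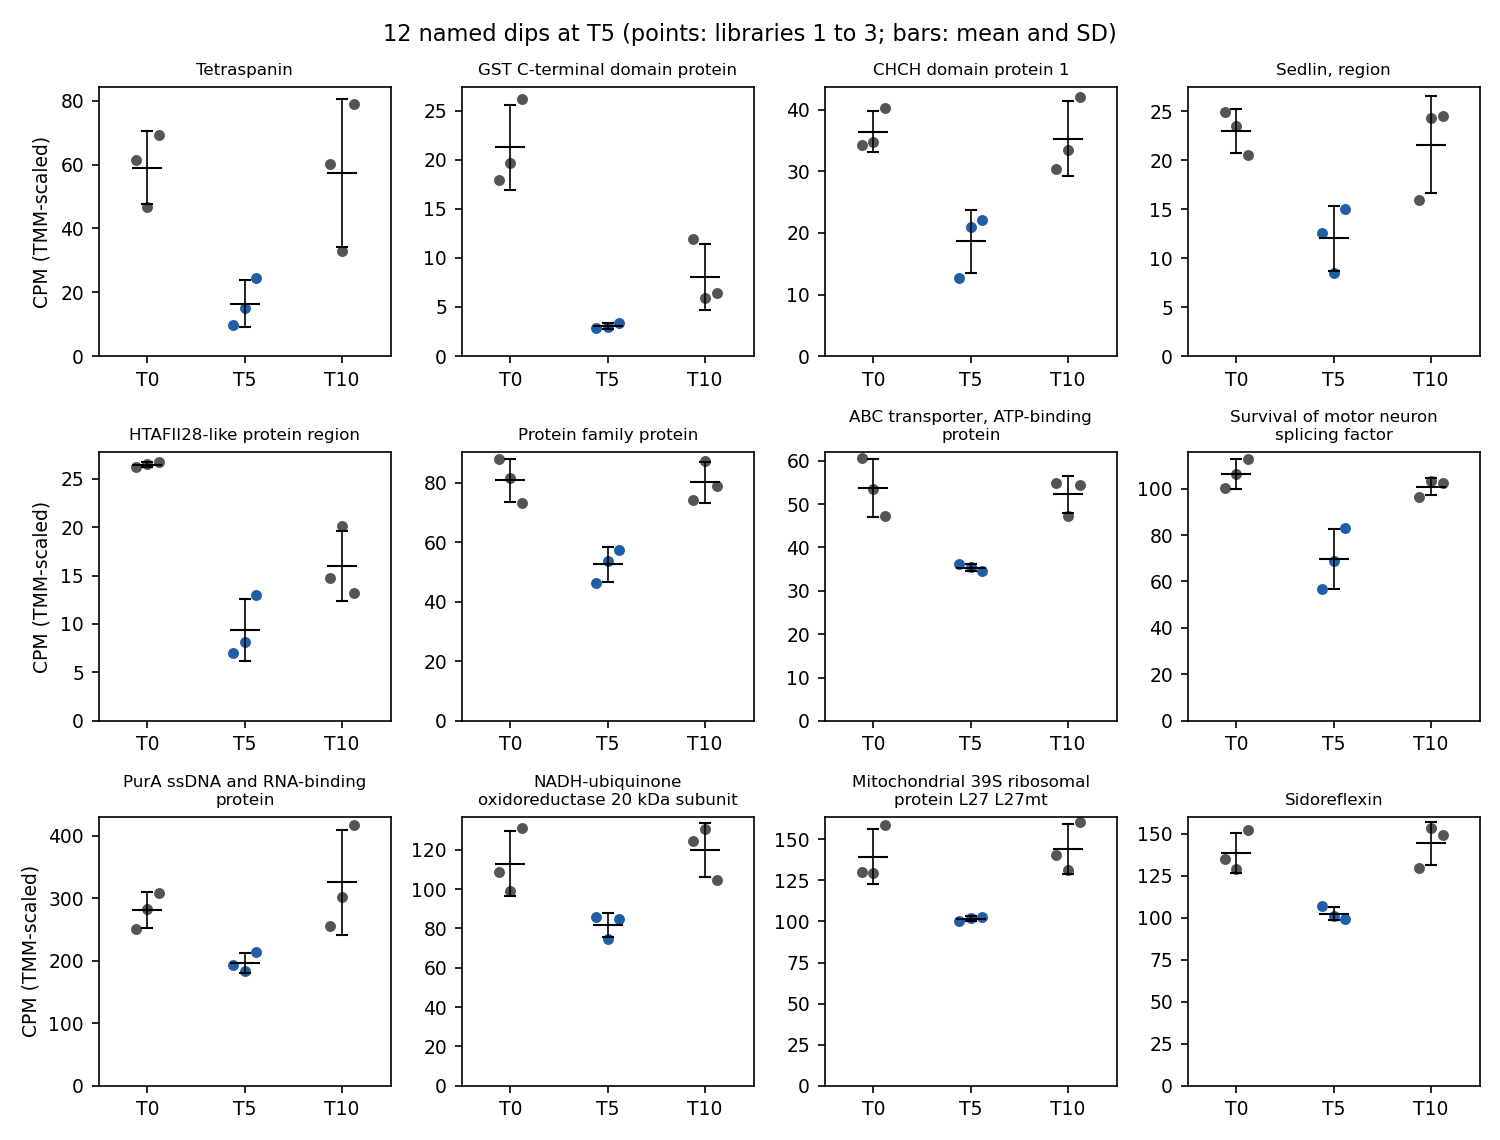
Level in CPM of the 12 named dips with the largest smaller step, 1 panel each, at T0, T5 and T10. Points are the 3 libraries of a time point and bars their mean and SD. In all panels the 3 T5 points lie below the 6 others, which was a condition of the choice, as for the tetraspanin with 9.76 to 24.4 CPM at T5.

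The contrast also called transcripts that climbed early and then stayed or went on. Actin on scaffold 520, of a family with near-identical copies, had 7.06, 5.24 and 6.55 CPM at T0, 255, 195 and 159 CPM at T5 and 221, 325 and 222 CPM at T10 (log2 difference 2.34, SE 0.17, adjusted p = 2.5e-07, quasi-likelihood test in edgeR). A dynein light chain, a small subunit of microtubule motors (scaffold 813), had 4.86, 4.51 and 7.69 CPM at T0, 128, 113 and 145 CPM at T5 and 285, 262 and 276 CPM at T10 (log2 difference 1.71, SE 0.15, adjusted p = 1.1e-06). Actin overlapped between T5 and T10, while every T10 library of the dynein light chain was above T5. The heat-shock list had 2 of 27 members higher (6.41% over all tested transcripts), an Hsp90 (0.54) and an Hsp20 family protein (1.5), and both were highest at T10. Hsp90 was not called without T5 replicate 2 or 3, T0 replicate 2 or 3 or T10 replicate 2 or 3 (adjusted p = 0.16 at the most).

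Peaks without a product name included transcripts with larger changes than most named ones. The model maker-scaffold10x_490_pilon-augustus-gene-0.28-mRNA-1 had no count at T0, 27.2, 20.3 and 23.1 CPM at T5 and 2.93, 4.61 and 2.71 CPM at T10, which put T5 at least 47.9-fold above the floor at T0. The model maker-scaffold10x_1272_pilon-snap-gene-0.3-mRNA-1 had 1.03, 0.582 and 0 CPM at T0, 34.9, 47.3 and 32.5 CPM at T5 and 7.89, 6.07 and 4.33 CPM at T10 (log2 difference 4.36, SE 0.35, adjusted p = 5.5e-07, quasi-likelihood test in edgeR). In both, all T5 libraries were above all T10 libraries by a wide margin, and the step between them passed (adjusted p = 0.0018 and 0.0017). A further one, maker-scaffold10x_2189_pilon-snap-gene-0.9-mRNA-1, had 4.42, 3.2 and 1.15 CPM at T0, 7.7, 15.0 and 7.9 CPM at T5 and 1.72, 1.18 and 0.696 CPM at T10, with a call that was lost without T5 replicate 2 (adjusted p = 0.085).

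One tested model, maker-scaffold10x_942_pilon-snap-gene-0.56-mRNA-1, had counts at T5 only, with 5.97, 8.45 and 1.35 CPM there and no count in the 6 other libraries. It was at least 10.7-fold above the floor at T0 and at least 17.3-fold above that at T10 (adjusted p = 0.0014, quasi-likelihood test in edgeR). All T0 libraries were at 0 in 17 of the peaks, and all T10 libraries in 2.

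Of the unnamed dips with at least 10 CPM at their highest time point, the 3 with the largest distance from both were the following. The model maker-scaffold10x_1309_pilon-snap-gene-0.103-mRNA-1 had 15.3, 10.9 and 13.3 CPM at T0, 0.919, 0.106 and 0.77 CPM at T5 and 3.74, 2.65 and 4.33 CPM at T10 (log2 difference -3.49, SE 0.58, adjusted p = 0.0014, quasi-likelihood test in edgeR). The model maker-scaffold10x_113_pilon-snap-gene-0.205-mRNA-1 was more abundant, with 240, 145 and 167 CPM at T0, 46.5, 34.1 and 41.1 CPM at T5 and 142, 77.1 and 76.3 CPM at T10 (log2 difference -1.73, SE 0.23, adjusted p = 0.00014). For maker-scaffold10x_442_pilon-snap-gene-0.17-mRNA-1 the values were 19.7, 30.3 and 23.1 CPM at T0, 7.24, 11.5 and 6.84 CPM at T5 and 17.3, 26.1 and 22.4 CPM at T10 (log2 difference -1.44, SE 0.26, adjusted p = 0.0028). The calls of all 3 held with any 1 library left out.

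Of the 43 gene lists, 11 gave no call in edgeR's quasi-likelihood test, and 18 of their 236 tested transcripts had an unadjusted p under 0.05 (5 higher, 13 lower). Over all 6319 tested transcripts, the called ones included, 1396 had such a p. Lists taken for having no call hold fewer of them by that choice. They held 70 cytosolic ribosomal proteins, 34 translation factors, 34 proteins of the ubiquitin system, 22 of axonemes and cilia, 17 tRNA synthetases, 14 chaperonins and prefoldins, 14 of fatty acid binding and lipid activation, 13 ion channels and neural proteins, 10 histones, 5 ferritins and 3 eggshell proteins. Their median log2 differences ran from -0.21 for ferritins to 0.18 for eggshell proteins, where the median over all tested transcripts was 0.03. With DESeq2, 1 transcript each was called lower in the cytosolic ribosomal, translation factor, ubiquitin, axoneme and ferritin lists, and with library size in place of TMM 1 histone was called higher. Of 28 chromatin factors 22 had a positive value, with a median of 0.20, beside 823 of the 1906 tested transcripts with a product name. Of the 28 the histone methyltransferase MLL3 was the only one called (0.66, adjusted p = 0.017, and not called without T0 replicate 1 or 3 or T5 replicate 2 or 3, where it reached 0.11), and its fitted level was highest at T10. Over all tested transcripts 8.2% were called.

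**Figure D5:**
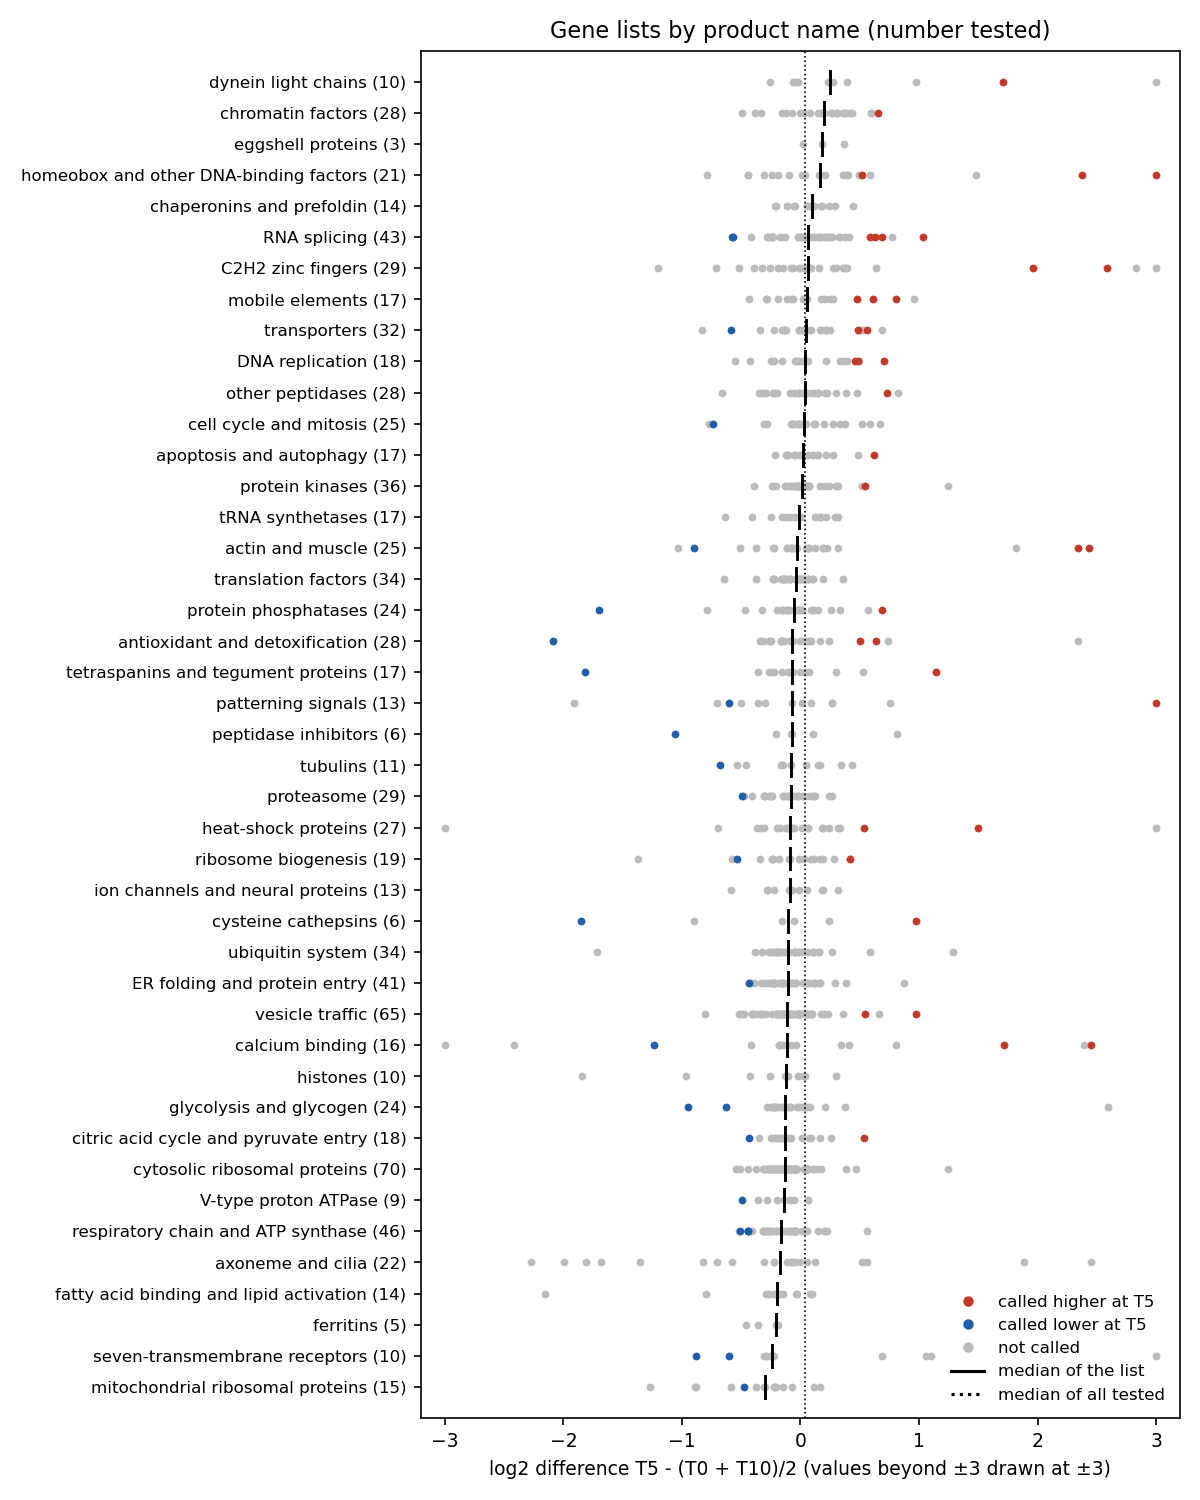
Log2 difference of T5 from the mean of T0 and T10 for the tested members of each gene list, 1 point per transcript, with the list's median as a bar and called transcripts in colour. The medians lie between -0.30 for mitochondrial ribosomal proteins and 0.25 for dynein light chains, close to the value of 0.03 over all tested transcripts.

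Around the threshold of 0.05 the values were alike. Just inside were Gem-associated protein 2 and an unnamed dip and an unnamed peak with log2 differences of -0.61 and 0.71. Just outside were Smooth isoform G at -0.64, an unnamed model at 0.51 and a tubulin beta chain at 0.44, with adjusted p-values of 0.0503 to 0.0512 (edgeR's quasi-likelihood test).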

How the data were processed

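RNA of 9 egg samples was sequenced as QuantSeq 3′ FWD libraries. Per the labels and the study's methods, the authors estimated read numbers for the gene models of the reference assembly by RSEM 1.3.3 with Bowtie2, after bcl2fastq 2.20.0.422, FastQC 0.11.8 and Trimmomatic 0.38 in the submitters' processing notes (the methods name another Trimmomatic version), and they used DESeq2 1.29.6 under R 4.0.1. The deposited expected counts are RSEM's estimates per model with no normalization. TPM, as deposited, is what the authors' RSEM run derived from those estimates, and it served for an alternative only.

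Expected counts were rounded to whole numbers. Of 16806 models 7098 tRNA models were left out. The remaining 9708 were filtered with filterByExpr, scaled with TMM and fitted over all 9 libraries with edgeR 4.0.16 (R 4.3.3), which tested the contrast T5 - (T0 + T10)/2 by quasi-likelihood with Benjamini-Hochberg adjustment over 6319 models and a threshold of 0.05. Every adjusted p in the text without another tool named is from edgeR. The biological coefficient of variation was 0.244 and the prior degrees of freedom 9.68. The SE of a log2 difference comes from the quasi-likelihood F statistic and so includes the estimated spread among libraries. The floor was 3 counts per library and covers counting error only. Product names of 2402 models (24.7%) came from a supplementary list of the study that was shortened and ordered by abundance, 1808 from *F. hepatica* and 594 from other species.

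Genes were named by this rule. Of called peaks and dips with a name, at least 10 CPM at the highest time point and all T5 libraries apart from the 6 others, the 12 of each with the largest smaller step were taken. Up to 3 transcripts per gene list with the smallest adjusted p, all tested cathepsins and peptidase inhibitors, 3 unnamed peaks and 3 unnamed dips, and the members of any count of 5 or fewer were added. The members and the 43 lists were chosen with earlier results of these data known, and 1 list pattern, that of RNA processing, was corrected after the files were read. Alternatives were other scalings, other filters, a limit on the log2 difference, DESeq2 1.42.0, limma 3.58.1 on log2(TPM + 1) and log2(TPM + 0.1), a replicate block and each library left out. The scripts were tested on simulated data. Tables were made with Python 3.11.15, pandas 2.3.3 and numpy 2.4.6.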

Additional observations from a re-analysis of the deposited data

Results flagged for a closer look

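Counts at T5 and in no other library were seen in 2 models that the filter on low counts kept out of the test. The model maker-scaffold10x_589_pilon-snap-gene-0.134-mRNA-1 had 15, 39 and 6 counts in the T5 libraries, 60 in all, and 0 in the 6 others. The model snap_masked-scaffold10x_702_pilon-processed-gene-0.13-mRNA-1 had 5, 4 and 1 counts, 10 in all, and 0 in the 6 others. Neither difference was tested.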

How the results depend on the processing

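Of 131 called transcripts with a product name, 34 kept direction and call in every alternative (19 peaks, 5 dips and 10 others), and none turned round. Where counts moved, the cause was not tested. With 1 library left out, higher calls ranged from 177 to 570, lower calls from 36 to 194, peaks from 115 to 359, dips from 30 to 170, peaks passed in both steps from 8 to 67 and dips passed in both steps from 7 to 73. Library size only in place of TMM moved the median log2 difference of all transcripts by 0.08. The median of T5 - T0 moved by 0.39 and that of T5 - T10 by -0.23. Peaks then numbered 184, of which 168 were shared with the 276, and dips 28, of which 27 were shared with the 99. Lower calls numbered 34, peaks passed in both steps 19 and dips passed in both steps 14. Of the calls 92.1% were higher, against 78.2% with TMM. DESeq2 gave 214 lower calls and 183 dips, with 68.3% of calls higher, and a filter of 10 CPM in 3 libraries gave 66.9%. With limma on log2(TPM + 1) there were 208 higher and 60 lower calls, 126 peaks, 34 dips and 12 dips passed in both steps. With limma on log2(TPM + 0.1) there were 219 higher and 38 lower calls, 115 peaks, 30 dips, and 20 peaks and 12 dips passed in both steps. With a log2 difference beyond 1 required, there were 157 higher and 28 lower calls, 95 peaks, 22 dips, and 18 peaks and 11 dips passed in both steps.

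The replicate block gave 375 higher and 96 lower calls, 257 peaks, 80 dips, and 27 peaks and 28 dips passed in both steps. Same-numbered libraries correlated in their deviations from the group means by -0.046 to 0.165, so the numbers were not taken to pair the samples, and the pairing was used for no other value.

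Direction was followed through the alternatives in 147 transcripts only, 138 of them called. It changed in 5 of these, none of which was called with edgeR and TMM. Cathepsin L on scaffold 1184 (-0.05) had 0.043 with library size only, 0.078 with either limma setting and -0.13 to 0.082 with 1 library left out. Antistasin (-0.08) had 0.018 with library size only, 0.058 with either limma setting and -0.22 to 0.12 with 1 library left out. Stefin-1 (-0.07) had 0.015 with library size only and 0.049 with either limma setting. Secreted cathepsin L 1 on scaffold 685 (0.24) had -0.36 with limma on log2(TPM + 1), and BPTI/Kunitz (0.11) ranged from -0.066 to 0.21 with 1 library left out. At 3 libraries per time point, differences of the size of the respiratory chain dips stood at the edge of what could be called.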

Other observations

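The reverse pattern, no count in any T5 library and counts in all 6 others, was seen in 3 models, all under the filter on low counts and not tested. A model on scaffold 1265 had 1, 12 and 14 counts at T0 and 5, 4 and 7 at T10. One on scaffold 520 had 5, 4 and 2 counts at T0 and 12, 6 and 18 at T10, and one on scaffold 702 had 2, 4 and 12 counts at T0 and 5, 23 and 4 at T10.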
